A study of Mus musculus with 18 samples.

Results

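The serum amyloid A genes Saa1, Saa2 and Saa3 were followed in the ileal epithelium of suckling mice given a single dose of Lactobacillus reuteri, a lactic acid bacterium of the gut. These 3 genes are among 19057 genes with a probe on the Illumina mouse array, and 2 of them, Saa1 and Saa3, are among the 12804 genes whose probe was detected often enough to be tested. Members were probes that carry one of these symbols in the platform annotation. Among the probes of a gene, the one of highest mean level was used, provided that it had a detection p under 0.05 in 3 or more arrays. The genes themselves were selected on measured values, the high Saa3 signal in pups given strain DSM 17938. Every Saa3 difference that uses pups of that strain is therefore given as a description, without a test.

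All 18 animals were CD1 pups, an outbred stock, male and female, with no sex given for a single pup and no genetic change. Orogastric gavage delivered 50 uL of PBS, a buffered salt solution, alone or with 1e+08 colony-forming units of L. reuteri, as strain DSM 17938 or strain ATCC PTA 6475. The pups were 11 days old when sampled 4 h later and 12 days old when sampled 24 h later, with 3 mice in each of the 6 groups and 1 array per mouse. Epithelium from 24 sections of the last 4 cm of the ileum was lifted off the slides by laser capture. Every array has its own mouse number in the labels, and the p-values below therefore measure the spread between mice. The mouse numbers lie close together within every group but PBS at 4 h. A litter or handling order shared by neighbouring numbers could not be told apart from the agent.

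Serum amyloid A proteins are small lipid-binding proteins that are secreted in the acute phase response and travel on high-density lipoprotein. In the mouse, Saa1 and Saa2 are made by the liver and the gut, while Saa3 is made largely outside the liver, by intestinal epithelium, macrophages and fat cells. Their transcription is known to respond to interleukin-1, interleukin-6, tumour necrosis factor and interleukin-22 through NF-kB, STAT3 and C/EBP factors, and in the gut it rises when bacteria settle on the epithelium. The proteins bind retinol and signal through receptors such as Fpr2 and Tlr2.

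The 3 genes lie together on mouse chromosome 7, with Saa4, a constitutive relative, between Saa3 and Saa1, and Saa1 beside Saa2. The 250 bases before each gene's start, from RefSeq on GRCm38.p6, are shown because the genes are neighbours with known regulators in common. All 3 members had an entry. The windows are chr7:46715677-46715926 on the minus strand for Saa3, chr7:46742981-46743230 on the minus strand for Saa1 and chr7:46751583-46751832 on the plus strand for Saa2. Each is written 5′ to 3′ in the direction of its gene. Capitals mark matches on either strand to the C/EBP motif TTNNGNAA, to the NF-kB consensus, to the STAT motif TTCNNNGAA or to TATAAA.
Saa3: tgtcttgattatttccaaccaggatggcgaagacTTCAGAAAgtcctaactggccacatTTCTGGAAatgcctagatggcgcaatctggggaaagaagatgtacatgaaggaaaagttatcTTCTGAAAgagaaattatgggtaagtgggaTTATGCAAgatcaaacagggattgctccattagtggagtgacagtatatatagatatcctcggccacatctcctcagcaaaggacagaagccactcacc
Saa1: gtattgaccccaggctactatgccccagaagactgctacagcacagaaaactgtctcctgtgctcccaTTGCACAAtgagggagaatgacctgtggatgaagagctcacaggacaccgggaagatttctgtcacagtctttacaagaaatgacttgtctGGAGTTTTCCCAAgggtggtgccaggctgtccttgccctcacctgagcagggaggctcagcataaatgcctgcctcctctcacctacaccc
Saa2: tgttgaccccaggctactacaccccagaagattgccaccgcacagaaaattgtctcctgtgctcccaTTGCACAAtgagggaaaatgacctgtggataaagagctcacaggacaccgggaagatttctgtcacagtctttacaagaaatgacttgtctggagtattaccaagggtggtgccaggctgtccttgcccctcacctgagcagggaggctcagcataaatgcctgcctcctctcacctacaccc

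The Saa3 window held 4 C/EBP matches, which start 216, 191, 129 and 99 bases before the gene's start. The Saa1 window held 2, at 182 and 86 bases, and the second overlaps the NF-kB match at 91 bases. The Saa2 window held 1 C/EBP match, at 183 bases, and no NF-kB match. No window held the STAT or TATAAA letters, and these matches say nothing of whether a factor binds. Over the same windows of 32851 genes, 36.8% held the C/EBP motif, 9.55% the NF-kB consensus, 7.02% the STAT motif and 12.4% TATAAA. The Saa1 and Saa2 windows were identical at 94.8% of aligned positions, against 52.2% for Saa1 and Saa3. Saa1 and Saa2 are close copies of each other, so their probes may share signal, which was not tested because the probe sequences were not used here.

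Saa3 was detected in 18 of 18 arrays, but in most of them near the detection limit. In the 12 arrays without DSM 17938 its bead signal was 1.00 to 1.45 times the lowest detected signal of the array. Saa3 is given first as the deposited bead signal, a brightness in arbitrary units. It is then given as a level, the log2 of the background-corrected and normalised signal. In PBS pups at 4 h the Saa3 bead signals were 87.6, 64.1 and 68, and at 24 h they were 91.5, 84.1 and 60.8. Pups given ATCC PTA 6475 had bead signals of 65.6, 81.4 and 62.2 after 4 h and 73.7, 52.3 and 63.9 after 24 h. The 52.3 lies below every PBS value and comes from the array with the lowest mean signal, 210.3; after normalisation that pup's level, 5.14, was inside the PBS range. Pups given DSM 17938 had bead signals of 93.8, 1454.2 and 554.3 after 4 h and of 410.6, 562.9 and 529.9 after 24 h. Thus 5 of the 6 pups given DSM 17938 stood far above the other arrays, and the remaining one, replicate 1 at 4 h, looked like a control.

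On the log2 scale the Saa3 level was 4.95 ± 0.25 (SD, n = 3) in PBS, 8.37 ± 2.59 with DSM 17938 and 5.08 ± 0.47 with ATCC PTA 6475 at 4 h. At 24 h it was 5.39 ± 0.35 in PBS, 8.84 ± 0.29 with DSM 17938 and 5.11 ± 0.22 with ATCC PTA 6475. From high to low the groups were therefore DSM 17938 at 24 h and at 4 h, then PBS at 24 h, ATCC PTA 6475 at 24 h and at 4 h, and PBS at 4 h. Neighbours in this order overlapped pup by pup at every step, because the low pup of the DSM 17938 4 h group, at 5.48, lay inside the range of PBS at 24 h. The DSM 17938 group at 24 h had no pup in the range of any group without this strain. The 12 arrays from pups without DSM 17938 spanned 4.66 to 5.69 with a median of 5.09, and a gap of 2.83 separated the highest of them from the lowest of the 5 high arrays, at 8.52.

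**Figure D1:**
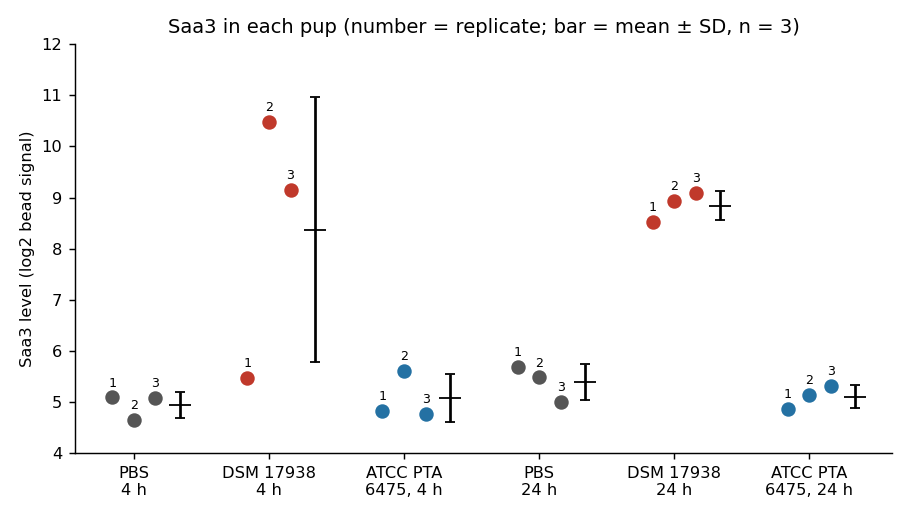
Saa3 level in log2 bead signal for each of the 18 pups, by group, with the replicate number above each point and the mean ± SD of 3 pups beside it. All 3 DSM 17938 pups at 24 h lie between 8.52 and 9.08; at 4 h 2 pups lie at 9.15 and 10.48 and 1 at 5.48, and the other 4 groups stay between 4.66 and 5.69.

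As a description of the values that chose the gene, Saa3 was 10.7-fold higher with DSM 17938 than with PBS at 4 h (log2 difference 3.43, SE 0.78) and 11.0-fold higher at 24 h (3.45, SE 0.78). Against ATCC PTA 6475 it was 9.80-fold higher at 4 h (3.29) and 13.3-fold higher at 24 h (3.73). The lower level in each ratio lies near the detection limit, so the fold sizes are uncertain. Ratios of mean bead signals, with no background correction, were 9.57 and 6.36 against PBS at 4 h and 24 h. Against ATCC PTA 6475 they were 10.0 and 7.92. The pups of both groups did not overlap in the comparisons with PBS at either time or with ATCC PTA 6475 at 24 h, but they did in the comparison with ATCC PTA 6475 at 4 h. Non-overlap of 3 against 3 pups was found for 8.05% of the 16835 features (12804 genes and 4031 unnamed probes) between DSM 17938 and PBS at 4 h and for 9.04% at 24 h. Between the strains it was found for 8.17% at 4 h and 7.23% at 24 h. Nothing is read from these shares for Saa3, since the gene was chosen on the same values.

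The difference between DSM 17938 and PBS ranked 1st of 16835 features for Saa3 at 4 h and 2nd at 24 h. A log2 difference over 2 was reached by 5 features at 4 h and by 6 at 24 h, and Saa3 was the 1 feature in both sets. The plot of both differences for all features shows it apart from the rest, while Saa1 lies within the bulk. The gene was chosen on its high signal with DSM 17938, so its ranks and place restate that choice.

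**Figure D2:**
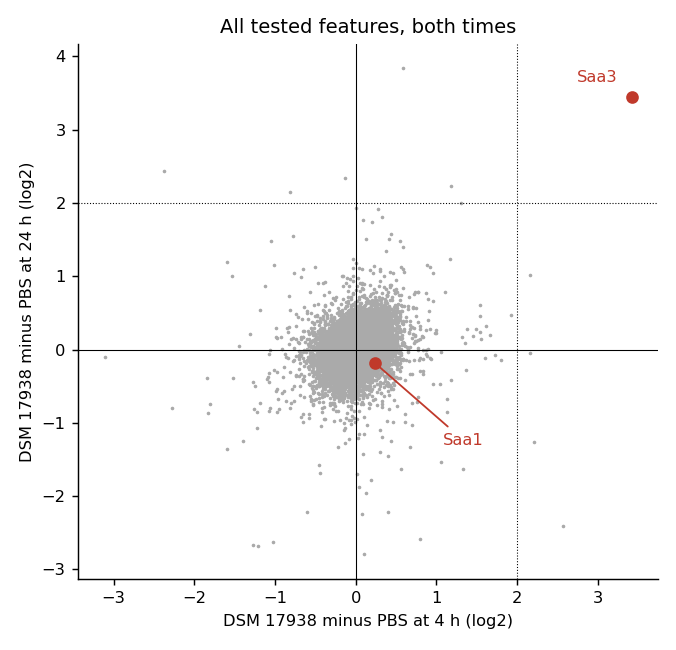
Log2 difference between DSM 17938 and PBS at 4 h (horizontal) and at 24 h (vertical) for 16835 tested features, each a grey dot, with Saa3 and Saa1 in red and dotted lines at 2. Saa3, at 3.43 and 3.45, is the only dot beyond 2 on both axes, and Saa1 lies at 0.24 and -0.19. Saa3 was chosen on its high signal with DSM 17938, so its place is a description.

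The spread of Saa3 within the DSM 17938 group at 4 h was itself large. The SD of 2.59 ranked 3rd highest of 16835 features in that group, where the median feature had an SD of 0.189, and at 24 h the Saa3 SD of 0.29 ranked 5206th. Without replicate 1 of the 4 h group the difference from PBS at 4 h was 4.87 (SE 0.34) in place of 3.43, and that from ATCC PTA 6475 was 4.74 in place of 3.29. The standard error of every Saa3 comparison is widened by this group, since all 18 arrays share 1 estimate of spread.

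Comparisons of Saa3 that did not enter its choice were tested with limma across all features. ATCC PTA 6475 differed from PBS in Saa3 level by 0.13 at 4 h (95% interval -1.51 to 1.78, adjusted p = 1.00) and by -0.28 at 24 h (95% interval -1.92 to 1.37, adjusted p = 0.908). Those intervals are wide: they leave room for changes of more than 2-fold either way, so the test does not show that this strain left Saa3 unchanged. In fits restricted to the 6 arrays of each comparison the standard errors were 0.25 and 0.21, with adjusted p of 1.00 and 0.580 by limma. Saa3 lay near the detection limit in PBS pups, so a fall below their level could hardly be seen.

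No tested difference in Saa3 between the times passed the test. The level was 0.45 higher at 24 h than at 4 h in PBS (adjusted p = 0.999 by limma). With ATCC PTA 6475 it was 0.03 higher (adjusted p = 0.996 by limma). The ATCC PTA 6475 effect at 24 h differed from that at 4 h by -0.41 (95% interval -2.74 to 1.92), which did not pass the test. With DSM 17938, whose values chose the gene, the level was 0.47 higher at 24 h than at 4 h. The DSM 17938 effect at 24 h differed from that at 4 h by 0.03. Both DSM 17938 values are a description. The time difference of DSM 17938 was -0.97 without replicate 1 of its 4 h group and 1.53 without replicate 2, so its direction rests on replicate 1.

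None of the Saa3 comparisons that use no DSM 17938 pups had an adjusted or an unadjusted p under 0.05 by limma. The background was the same for adjusted p, with 0% of features called in each of the 11 comparisons. An unadjusted p under 0.05 was found for 3.33% of features for ATCC PTA 6475 against PBS at 4 h and 15.1% at 24 h, and for 3.81%, 2.47% and 5.92% between the times in PBS, DSM 17938 and ATCC PTA 6475. For the change of the effect between times it was 2.21% for DSM 17938 and 4.7% for ATCC PTA 6475.

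Saa1, one of the liver-type acute phase genes, gave signals near the detection limit. The probe used, ILMN_2826869, was detected in 6 of 18 arrays, with bead signals of 45.9 to 71.4 while the lowest detected signal of an array ranged from 48.3 to 77.7. At 4 h its levels were 4.39, 4.50 and 4.47 in PBS, 4.48, 4.81 and 4.80 with DSM 17938, and 4.36, 4.35 and 4.82 with ATCC PTA 6475. At 24 h they were 5.05, 4.40 and 4.57 in PBS, 4.42, 4.51 and 4.53 with DSM 17938, and 4.56, 4.82 and 5.08 with ATCC PTA 6475. The detected arrays were spread over 4 groups, with 2 each in DSM 17938 at 4 h and ATCC PTA 6475 at 24 h and 1 each in ATCC PTA 6475 at 4 h and PBS at 24 h. In PBS at 4 h and DSM 17938 at 24 h the probe was not well above background in any pup, so the level there is a bound.

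None of the 11 Saa1 comparisons had an adjusted or an unadjusted p under 0.05 by limma. Saa1 differed from PBS by 0.24 with DSM 17938 at 4 h (95% interval -0.14 to 0.62, adjusted p = 1.00) and by -0.19 at 24 h (-0.57 to 0.19, adjusted p = 0.929). With ATCC PTA 6475 it differed from PBS by 0.06 at 4 h (-0.32 to 0.44, adjusted p = 1.00) and by 0.15 at 24 h (-0.23 to 0.53, adjusted p = 0.755). Background shares with an unadjusted p under 0.05 were 3.34% and 4.98% for DSM 17938 against PBS at 4 h and 24 h, and 3.38% and 4% between the strains at 4 h and 24 h.

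The Saa1 groups did not overlap in 1 of 9 pairwise comparisons, with DSM 17938 below ATCC PTA 6475 at 24 h (difference -0.33, 95% interval -0.71 to 0.05, adjusted p = 1.00), where 7.23% of features did not overlap. In the other pairs without a share above, non-overlap was found for 7.7% of features for ATCC PTA 6475 against PBS at 4 h and 21.4% at 24 h. Between the times it was found for 9.25% in PBS, 5.82% with DSM 17938 and 10.8% with ATCC PTA 6475.

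The other Saa1 probe, ILMN_2768154, was detected in 4 of 18 arrays, at levels of 4.32 to 5.01. Both probes were above the limit together in 2 arrays, and their levels over 18 arrays had a Pearson correlation of 0.455. Saa2, the close copy of Saa1, was detected in 1 array, replicate 2 of DSM 17938 at 4 h (bead signal 64.4, level 4.94, detection p 0.0331), which is also the pup with the highest Saa3. Its 17 other levels lay between 4.28 and 4.83. With 1 detected array Saa2 was left out of the tests, and a fit without the detection filter gave Saa2 differences of -0.17 to 0.19 over 11 comparisons, none with an unadjusted p under 0.05. The Saa4 probe was detected in 0 of 18 arrays.

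**Figure D3:**
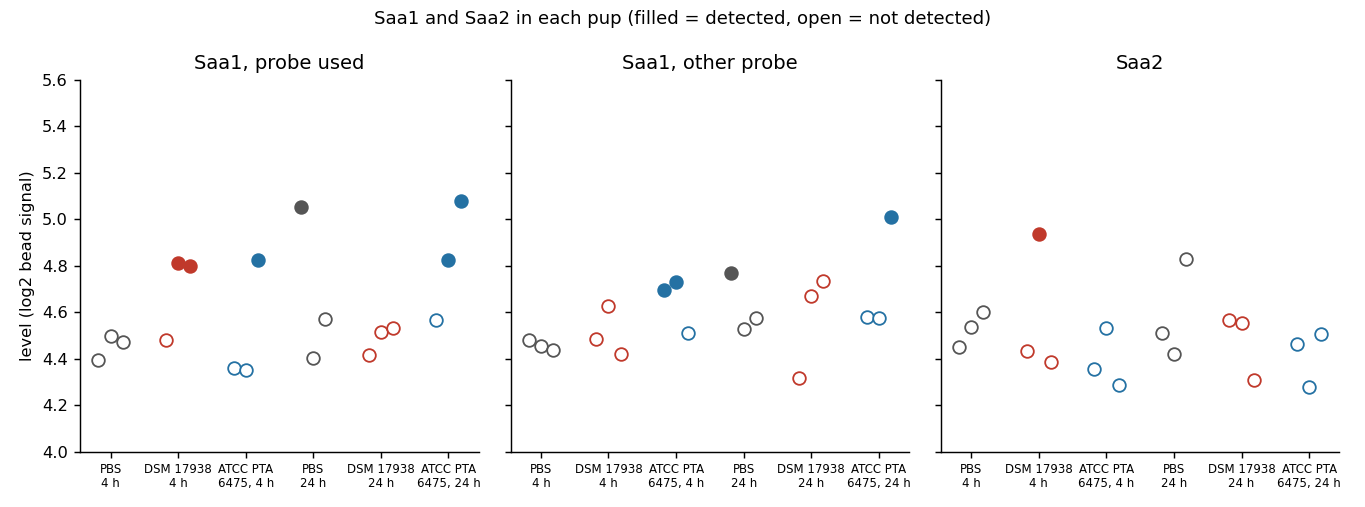
Levels in log2 bead signal of both Saa1 probes and the Saa2 probe in each pup, by group, with filled points for arrays that detected the probe and open points for those that did not. Most points are open: 6 of 18 are filled for the Saa1 probe used, 4 for the other Saa1 probe and 1 for Saa2.

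A dark probe does not show that the RNA was absent. The probes of Fabp1 and Fabp2, which encode abundant fatty acid binding proteins of enterocytes, were also detected in 0 of 18 arrays, at bead signals of 39.2 to 65.2 and 37.4 to 55.8. Over the 18 arrays the level of Saa3 had a Pearson correlation of 0.0954 with that of Saa1 and of 0.292 with that of Saa2, points that share the array and its normalisation. No relation is read from these values, since Saa1 and Saa2 lie at the detection limit.

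**Figure D4:**
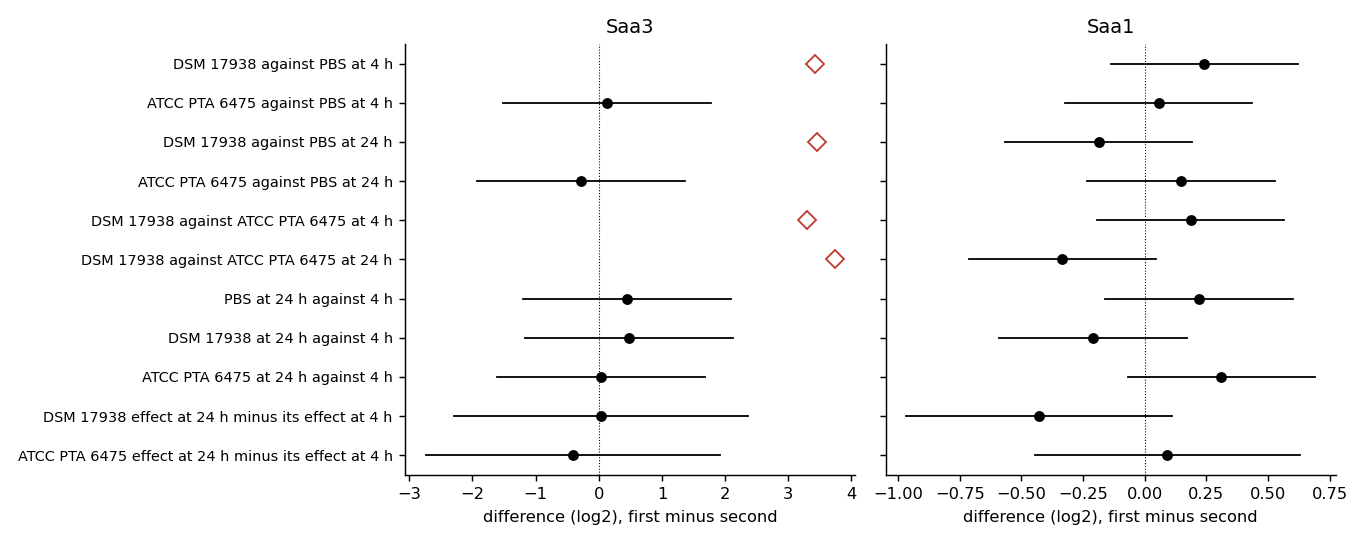
Log2 difference, first group minus second, for Saa3 (left) and Saa1 (right) in 11 comparisons, with 95% intervals from limma for tested values and open diamonds for the 4 Saa3 values that entered its choice. All intervals cross 0, and the diamonds lie between 3.29 and 3.73.

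The 5 genes whose pattern was most like that of Saa3 over the 18 arrays were Noxo1 (Pearson r 0.846), Ptprh (0.812), Rhbdd2 (0.799), Lcn2 (0.798) and Vnn3 (0.786). Noxo1 encodes the organiser subunit of the epithelial oxidase Nox1, Ptprh a receptor-type tyrosine phosphatase and Lcn2 lipocalin 2, which binds bacterial iron carriers. The pups fall into separate high and low sets for Saa3, so these values rest mostly on the step between them. Within the 12 arrays without DSM 17938 the correlation with Saa3 was 0.510 for Noxo1, 0.304 for Ptprh, 0.263 for Rhbdd2, 0.469 for Lcn2 and -0.361 for Vnn3, which was detected in 8 arrays. Within the 6 DSM 17938 arrays it was 0.762, 0.774, 0.798, 0.880 and 0.745, in the same order. The genes were picked over all 18 arrays, these 6 among them. The 6 hold the same step, with 1 low pup at a Saa3 level of 5.48, so no relation is read from them. The other probes of these genes did not all behave alike: both other Rhbdd2 probes reached at most 0.215, while the other Noxo1 probe reached 0.685 and the other Vnn3 probe 0.848. For Saa1 the highest correlations were those of Myo1e (0.754), Dnajb3 (0.735), Lzts3 (0.723), Hnrnpd (0.690) and Olfr1269 (0.683), but the Saa1 probe was detected in 6 of 18 arrays and no relation is read from them. Other probes of Myo1e, Lzts3 and Hnrnpd reached at most 0.152.

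Lcn2 levels with DSM 17938 were 5.12, 8.67 and 7.26 at 4 h and 5.73, 6.90 and 6.72 at 24 h, and the other 12 arrays spanned 5.02 to 6.58. As with Saa3, replicate 2 at 4 h was highest and replicate 1 at 4 h was low, but at 24 h Lcn2 overlapped the controls. Noxo1 with DSM 17938 was at 10.45, 11.17 and 11.03 at 4 h and 11.01, 10.54 and 11.09 at 24 h, with 4 of the 6 pups above the highest of the other 12 arrays (10.65).

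The genes that are known to be switched on beside the serum amyloid A genes by interleukin-22 or bacterial contact were examined as a list, with 21 of 27 tested. This list, like the others below, was drawn up with earlier results of these data known. At 4 h, 6 of the 21 were higher with DSM 17938 than with PBS at an unadjusted p under 0.05 and 0 were lower, with a median difference of 0.45 against 0.01 over all features, of which 1.66% were higher and 1.68% lower by that rule. With ATCC PTA 6475 at 4 h, 0 of the 21 were higher or lower, and the median was 0.04. At 24 h, 0 were higher and 3 lower with each strain, where 2.42% of all features were lower with DSM 17938 and 7.48% with ATCC PTA 6475. For ATCC PTA 6475 at 24 h, 15.1% of all features had such a p in either direction, so its count is near the background. Without 1 array at a time, the 6 higher genes at 4 h numbered 3 to 7, with 3 when replicate 1 of PBS or replicate 2 of DSM 17938 was left out. By limma 0 of the 21 passed the adjusted p in any of these comparisons. Retnlb, also on the list, was 2.44 higher with DSM 17938 than with PBS at 24 h, without an unadjusted p under 0.05 by limma. That difference ranked 3rd of 16835 features, right after Saa3. Against ATCC PTA 6475 at 24 h Retnlb was 2.53 higher with DSM 17938, ranked 2nd after Saa3. These ranks are a description.

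Among them at 4 h, Camp, which encodes the antimicrobial peptide cathelicidin, was 3.80-fold higher with DSM 17938 (9.13 ± 0.55 against 7.20 ± 0.57, SD, n = 3, adjusted p = 0.783 by limma). Duoxa2, which the hydrogen peroxide producing oxidase Duox2 needs to mature, was 3.48-fold higher (8.19 ± 1.74 against 6.39 ± 0.33, adjusted p = 1.00 by limma). Its DSM 17938 levels at 4 h were 6.34, 9.79 and 8.43, and at 24 h they were 6.99, 6.48 and 6.82. Duoxa2 was thus high in the same 2 pups at 4 h as Saa3. The pups sampled at 24 h are other mice. In them Duoxa2 lay within the range of the other 12 arrays, 6.05 to 7.47, while Saa3 was high. Leaving out pups was a setting added after the data were seen. The Duoxa2 difference at 4 h was 2.72 without replicate 1 of DSM 17938 and 1.00 without replicate 2. Its size thus rests on which pup is left out. Replicate 1 was itself low in Duoxa2, so no call is read from leaving it out.

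Camp ran differently: its levels with DSM 17938 were 8.79, 9.76 and 8.82 at 4 h and 8.64, 8.48 and 7.49 at 24 h. The pup with control-like Saa3, replicate 1 at 4 h, had the third highest Camp of all 18 arrays, and 5 of the 6 DSM 17938 pups lay above the other 12 (6.75 to 8.18). Nos2, the inducible nitric oxide synthase, was not well above background in any PBS pup at 4 h, and was at least 1.12-fold higher with DSM 17938 (adjusted p = 1.00 by limma).

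**Figure D5:**
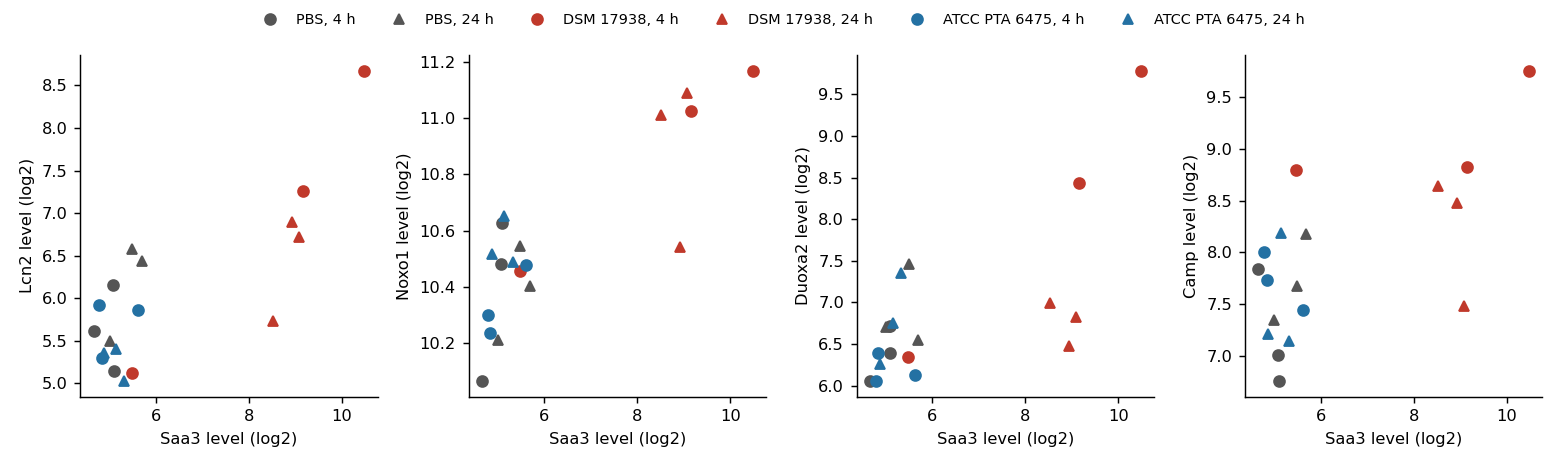
Level of Lcn2, Noxo1, Duoxa2 and Camp (vertical, log2 bead signal) against the Saa3 level (horizontal, log2 bead signal) in each of the 18 pups, coloured by treatment with circles for 4 h and triangles for 24 h. Duoxa2 is above the other 12 arrays in 2 DSM 17938 pups, Lcn2 and Noxo1 in 4 and Camp in 5, including the 4 h pup whose Saa3 was 5.48.

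At 24 h the lower genes of this list were led by the calprotectin subunits, which neutrophils carry in bulk. S100a8 differed from PBS by -2.59 with DSM 17938 (4.74 ± 0.45 against 7.33 ± 1.66, adjusted p = 0.911 by limma) and S100a9 was at least 2.74-fold lower (adjusted p = 0.911). A single PBS pup, replicate 1 at 24 h, carries much of both values: S100a8 was at 9.24 there and at 6.21 and 6.54 in the other PBS pups, and S100a9 at 8.27 against 5.47 and 4.92. Without that pup S100a8 was 3.09-fold lower and S100a9 at least 1.35-fold lower with DSM 17938, both with adjusted p = 0.911 by limma. With ATCC PTA 6475, S100a8 was at 5.22 ± 0.86 (difference -2.11, adjusted p = 0.144), and the difference was -1.16 without the same PBS pup (adjusted p = 0.322). Mptx1, a pentraxin of the gut epithelium, was 1.75-fold lower with DSM 17938 (adjusted p = 0.911). The mean level of the 9 of 15 tested neutrophil markers was 6.42 in that PBS pup and 5.43 in both other PBS pups at 24 h, 5.09 to 5.21 with DSM 17938 and 5.09 to 5.35 with ATCC PTA 6475. S100a8 and S100a9 are themselves on that marker list, Cxcr2, Mmp8 and Ctsg were detected in no array, and the part of neutrophils in the result was not tested.

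Of 24 other acute phase genes, 16 were tested, and Orm1, Orm2, Orm3, Crp, Fgb, Itih4, C3 and Saa4 were not. Lcn2 is on this list and on the list of defence genes above, and is counted in both. With DSM 17938 at 4 h, 2 of the 16 were higher at an unadjusted p under 0.05 and 0 lower, with a median difference of -0.02. These were Lcn2 (2.60-fold, 7.02 ± 1.79 against 5.64 ± 0.51) and Il1rn, the interleukin-1 receptor antagonist (1.84-fold, 5.76 ± 1.05 against 4.88 ± 0.14), each with adjusted p = 1.00 by limma. The share of all features with an unadjusted p under 0.05 was 3.34% in that comparison, 3.33% for ATCC PTA 6475 at 4 h, 4.98% for DSM 17938 at 24 h and 15.1% for ATCC PTA 6475 at 24 h. Without replicate 2 of DSM 17938 at 4 h the 2 became 0, with Lcn2 at a difference of 0.55. Without replicate 1 the Lcn2 difference was 2.33 and that of Il1rn 1.42. Leaving out pups was added after the data were seen. Replicate 1 was itself low in both genes, so no call is read from leaving it out. Il1rn followed the Saa3 pups at 4 h, at 4.68, 6.77 and 5.82, and at 24 h it was at 4.77, 4.65 and 4.78, inside the range of the other arrays. With DSM 17938 at 24 h, 2 of the 16 were higher and 1 lower, and with ATCC PTA 6475 at 4 h 1 was higher, C4b. With ATCC PTA 6475 at 24 h, 0 of the 16 were higher and 2 lower, among them the fibrinogen chain gene Fga (7.98 ± 0.54 against 8.96 ± 0.54, adjusted p = 0.187 by limma).

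The cytokines that induce these genes gave little signal: 9 of 14 were tested, and Il6, Il1a, Il22, Il17f and Csf2 were not. With DSM 17938, 0 of the 9 were higher at 4 h or 24 h at an unadjusted p under 0.05, and Tnf was at 5.07 ± 0.36 against 4.68 ± 0.18 in PBS at 4 h (adjusted p = 1.00 by limma). The 1 cytokine gene with an unadjusted p under 0.05 for DSM 17938 at 24 h was Il17a, whose probe was above background in 1 of the 2 groups only, so no size is given. For ATCC PTA 6475 there were 0 at 4 h and 2 higher at 24 h, Lif and Il11. Of their receptors, 11 of 13 were tested, with 0 higher or lower at 4 h and 1 lower at 24 h with DSM 17938. That gene was Tnfrsf1a, a tumour necrosis factor receptor, 1.41-fold lower (adjusted p = 0.911 by limma). With ATCC PTA 6475, 1 receptor was higher at 4 h, Il6ra, and at 24 h 2 were higher and 2 lower, Tnfrsf1a among the lower at -0.73. In the same 4 comparisons 3.34% (DSM 17938, 4 h), 4.98% (DSM 17938, 24 h), 3.33% (ATCC PTA 6475, 4 h) and 15.1% (ATCC PTA 6475, 24 h) of all features had such a p.

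Among 16 bacterial sensors and their adaptors, 14 were tested. With DSM 17938, 1 was higher at 4 h, the Toll-like receptor adaptor Myd88 (difference 0.24), and 3 at 24 h, Traf6 (0.36), Nod1 (0.32) and Tlr2 (0.79), at an unadjusted p under 0.05. Tlr2, a receptor of bacterial lipoproteins, was also 1.90-fold higher with ATCC PTA 6475 at 4 h, in pups whose Saa3 level was 4.78 to 5.62. With ATCC PTA 6475, 1 of the 14 was higher at 4 h and 3 were higher and 1 lower at 24 h, against 3.33% and 15.1% of all features. For DSM 17938 the share of all features was 3.34% at 4 h and 4.98% at 24 h. Cd14, the lipopolysaccharide co-receptor, was at 8.22 ± 1.03 with DSM 17938 and 7.49 ± 0.39 with PBS at 4 h. Its DSM 17938 levels at 4 h were 7.11, 9.14 and 8.40, high in the same pups as Saa3. The 12 arrays without DSM 17938 spanned 7.04 to 7.93. None of the 14 passed the adjusted p by limma in these 4 comparisons.

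Of 24 transcription factors and inhibitors in the control of serum amyloid A transcription, 20 were tested. With DSM 17938, 1 was higher and 3 lower at 4 h and 1 higher and 1 lower at 24 h, and with ATCC PTA 6475 the counts were 1 and 0, then 1 and 3. Of all features, 3.34% and 4.98% had such a p with DSM 17938 at 4 h and 24 h, and 3.33% and 15.1% with ATCC PTA 6475. Nfkbiz, the inducible NF-kB cofactor, was higher than in PBS in all 4 strain comparisons at an unadjusted p under 0.05, by 0.39 with DSM 17938 and 0.34 with ATCC PTA 6475 at 4 h, and by 0.35 and 0.56 at 24 h. Cebpa, which encodes a C/EBP factor, was lower by the same rule in 3 of them, at -0.51 and -0.58 with DSM 17938 at 4 h and 24 h and -1.05 with ATCC PTA 6475 at 24 h. Both strains were compared with the same PBS pups at each time. The smallest adjusted p among these values by limma was 0.123.

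Among the receptors and carriers of the proteins, 8 of 13 were tested, with 0 higher and 1 lower at 4 h and 1 higher and 0 lower at 24 h for DSM 17938. For ATCC PTA 6475, 2 were higher at 4 h and 0 at 24 h, with 0 lower. Tlr2, already counted among the sensors, was the 1 higher gene with DSM 17938 at 24 h. It was also 1 of the 2 with ATCC PTA 6475 at 4 h. The shares of all features were 3.34% and 4.98% for DSM 17938 and 3.33% and 15.1% for ATCC PTA 6475 at 4 h and 24 h. Apoa1, the main apolipoprotein of high-density lipoprotein, was 1.39-fold lower with DSM 17938 at 4 h (14.09 ± 0.32 against 14.57 ± 0.27, adjusted p = 1.00 by limma). Fpr2, a receptor of these proteins, was at 6.07 ± 0.40 with ATCC PTA 6475 against 5.43 ± 0.70 with PBS at 4 h (adjusted p = 1.00). Of 17 retinoid genes 11 were tested, and Rbp2, the retinol binding protein of enterocytes, was 2.08-fold lower with DSM 17938 at 4 h (adjusted p = 1.00 by limma). No other retinoid gene had an unadjusted p under 0.05 in the 4 comparisons with PBS.

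The samples held more than epithelium. Of 17 enterocyte markers 14 were tested, with a mean level of 10.35 to 11.00 over all arrays, and Apoa4, Vil1 and Cdx2 were detected in 18 of 18. Markers of fibroblasts such as Dcn, Col1a1 and Col6a1, and of smooth muscle such as Acta2, Myh11 and Des, were also detected in all 18 arrays. Fewer cells of a type and less RNA per cell cannot be told apart in such samples. Macrophages are a known source of Saa3, and 13 of their 18 markers were tested. The mean level of these 13 was 7.29 to 7.81 in PBS, 7.49 to 7.55 with DSM 17938 and 7.34 to 7.71 with ATCC PTA 6475 at 4 h. At 24 h it was 7.50 to 7.91, 7.19 to 7.93 and 7.31 to 7.80 in the same order. The groups overlapped in this mean at both times. Of the 13 markers, 5 had a difference above 0 between DSM 17938 and PBS at 4 h, Cd14 among them. Lyz2 was lowest of all 18 arrays, at 5.76, in replicate 2 of DSM 17938 at 4 h, where Cd14 was highest. Itgam, Itgax and Fcer1g were detected in no array.

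Of 6 adipocyte markers 4 were tested, and their mean level with DSM 17938 was 5.83 to 6.11 at 4 h and 5.77 to 6.81 at 24 h, against 5.96 to 6.34 and 5.86 to 6.14 with PBS. Of 9 hepatocyte markers 4 were tested, and Alb, the gene of serum albumin, was detected in 0 arrays. The mean level of those 4 was 6.89 to 7.20 with DSM 17938 and 7.21 to 7.42 with PBS at 24 h, ranges that narrowly did not overlap. Of all single features, 9.04% did not overlap in that comparison. At 4 h the means overlapped, at 6.93 to 7.24 with DSM 17938 and 6.83 to 7.46 with PBS. The part of these cell types in the Saa3 values was not tested.

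Pups of both sexes were used. Xist, a transcript of female cells, was at 11.99 to 12.79 in 8 arrays and at 4.31 to 4.77 in 10. The groups were uneven in it: at 4 h Xist was at 12.71, 12.28 and 4.31 with DSM 17938. With ATCC PTA 6475 at 4 h it was at 4.44, 4.52 and 4.44. Xist had the highest difference of all features between the strains at 4 h (5.30), and the 2nd highest for DSM 17938 against PBS at 4 h (2.57). Of the 6 DSM 17938 pups, 3 had high Xist with Saa3 levels of 5.48 to 10.48 and 3 had low Xist with Saa3 levels of 8.52 to 9.15. In the pups without DSM 17938 Saa3 spanned 4.66 to 5.49 in the 5 with high Xist and 4.78 to 5.69 in the 7 with low Xist. With the Xist level as a covariate, an alternative added after the data were seen, the Saa3 difference between DSM 17938 and PBS was 3.59 at 4 h and 3.30 at 24 h.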

How the data were processed

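Transcripts were measured on 18 Illumina bead arrays, grouped by agent and time from the labels. Per the labels' protocols, the RNA came from a PicoPure isolation and was amplified to biotinylated cRNA. GenomeStudio is named, without a version, per the submitters' processing notes. Bead signals were deposited as intensity values on a linear scale and are non-normalised per the file headers. The deposited detection values are a fraction that rises with the signal, and 1 minus that fraction was used as the detection p. A table of log2 values deposited by the authors has a median of 5.92 in each column and follows quantile-normalised, uncorrected signals (r at least 0.999995); it served as an alternative.

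R 4.3.3 and limma 3.58.1 were used, with its neqc function for the signals (background from the detection values, offset 16, quantile normalisation, log2). Mean array signal ranged from 210.3 to 459.7, 20284 to 22848 of 45281 probes were detected per array, and the number of arrays limits the precision. Symbols came from the platform annotation, updated through gene IDs; 34885 probes had 1 symbol, 18 several and 10378 none. Detection (p under 0.05) on 3 or more arrays was met by 24506 probes, which gave 16835 features. The limma model held 1 mean for each of the 6 groups, over all 18 arrays, and 11 contrasts (12 residual and 4.25 prior degrees of freedom), with Benjamini-Hochberg adjustment within a contrast. Simulated data with known changes were used to test the model code. For 3 mice against 3, the smallest two-sided p of an exact permutation test is 0.10.

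The members and all lists were chosen with earlier results of these data known. Named genes were the members, the 5 genes closest to each by Pearson correlation, and up to 3 genes per list with the smallest unadjusted p in each strain's comparison with PBS. Marker genes, Xist, Retnlb, Fabp1 and Fabp2 were named after their values were seen. Replicate numbers stand for the letters in the labels' titles, which name no shared litter or batch. The array numbers in the labels run consecutively within a letter, with every group in each run. What this order stands for is not stated. Same-numbered pups deviated together with r over 0.1 in 17 of 27 pairs (-0.05 to 0.51), and in every pair for 3 of 9 comparisons: DSM 17938 against PBS at 24 h, strain against strain at 4 h, and PBS between times. Promoter windows and gene order came from RefSeq tables; motifs were searched on both strands. Alternatives were another offset, median scaling, the deposited values, no background correction, other detection filters, array weights, the replicate block, fits on the compared groups alone, other probes, a Xist covariate and leaving out each array in turn; the covariate, and leaving out arrays for the gene lists, were chosen after seeing the data.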

Additional observations from a re-analysis of the deposited data

Results flagged for a closer look

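At 24 h every DSM 17938 pup lay above the PBS mean of Saa3 and every ATCC PTA 6475 pup below it, with the means of both strains 3.73 log2 units apart. That difference was not tested, because the gene was chosen on it. The ATCC PTA 6475 pups overlapped PBS, and their difference of -0.28 did not pass the test (adjusted p = 0.908 by limma).

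The Saa1 values of DSM 17938 pups lay above the PBS mean at 4 h and below it at 24 h in every pup, a fitted change of -0.43 that did not pass the test (adjusted p = 1.00 by limma). The probe was detected in 0 of 3 PBS pups at 4 h and 0 of 3 DSM 17938 pups at 24 h, so these values lie at background and give no direction.

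A signal appeared in 2 probes outside the tests. The Saa2 probe reached 4.94 in replicate 2 of DSM 17938 at 4 h, above every PBS array, and the other Saa1 probe reached 5.01 in replicate 3 of ATCC PTA 6475 at 24 h. The detection p of the Saa2 value was 0.0331.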

How the results depend on the processing

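For Saa3 and Saa1, 374 of 376 values under 29 other settings, 18 of which leave out 1 array each, were counted as unchanged. The rule was to keep the side of the threshold. For Saa3 differences of DSM 17938 from PBS or ATCC PTA 6475 it was direction and a distance under 1 SD between mice. This count is a weak check. Main adjusted p values of tested comparisons were 0.755 or higher by limma, and the Saa3 SD is widened by the DSM 17938 group at 4 h. Differences from PBS at 4 h of 2.37 and 2.62, in place of 3.43, thus counted as unchanged. The exceptions are the Saa3 differences of DSM 17938 from PBS (4.87) and from ATCC PTA 6475 (4.74) at 4 h without replicate 1 of the DSM 17938 group. Leaving out each array in turn gave 2.37 to 4.87 for Saa3 between DSM 17938 and PBS at 4 h and 3.26 to 3.62 at 24 h. The deposited values gave smaller Saa3 differences, 2.62 at 4 h and 2.64 at 24 h. Where no value passed the threshold, small tested differences changed sign under some settings, such as ATCC PTA 6475 against PBS at 4 h (-0.14 to 0.28 for Saa3). The replicate block left both Saa3 differences at 3.43 and 3.45 with an SE of 0.73 and changed no call for a member. Features past an adjusted p of 0.05 numbered 0 in all 11 comparisons of the main fit, which holds no block. Under the replicate block there were 246 for ATCC PTA 6475 against PBS at 24 h. Same-numbered pups in that comparison deviated together with r of 0.24, 0.04 and 0.46. Without replicate 1 of DSM 17938 at 4 h there were 10 for that strain against PBS at 4 h. With only the compared arrays there were 6 for DSM 17938 against PBS at 24 h and 6 for PBS between times. Strain against strain at 24 h had 1 in such a fit. Median scaling moved the median of all features by -0.107 at 4 h and -0.171 at 24 h for ATCC PTA 6475 minus PBS, and by 0.171 between the strains at 24 h. Low signal limits Saa1 and Saa2, which lie at the detection limit in most arrays, and Saa3 in the arrays without DSM 17938.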
